A study of Mus musculus with 31 samples.

Results

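The change between 3 h and 6 h of treatment with neuromedin U (NmU) was measured in D10.G4.1 cells, a cloned line of mouse type 2 helper T (Th2) cells. The comparison used every array labelled as NmU at these times, 3 at 3 h and 4 at 6 h, so 7 of the 31 arrays of the series. Cells given phosphate-buffered saline (PBS) instead of the peptide, with 4 arrays at 3 h and 4 at 6 h, showed what changed with time alone. The other 16 arrays, NmU and PBS at 0.8 h and 12 h, entered the estimate of the spread. All groups came from the same clone, so that 1 line stands for Th2 cells here, and no dose of the peptide is given in the labels. The labels also do not say whether replicates were separate cultures, and the p-values therefore reflect how far these samples varied, possibly for technical reasons alone. The RNA came from whole cultures, in which fewer cells of a type and less RNA per cell cannot be told apart.

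Neuromedin U is a peptide first known from smooth muscle contraction. Its receptor Nmur1 couples to G proteins that release calcium from intracellular stores, and Th2 cells and other cells of type 2 immunity can carry it. Th2 cells secrete interleukins 4, 5, 10 and 13 together with chemokines that draw other leukocytes. Their transcripts are made in bursts after a stimulus, and the first wave of transcription factors is followed by feedback regulators and then by metabolic genes. Cholesterol is built from acetyl-CoA through mevalonate, isoprenoids, squalene and lanosterol. The genes of that path are read together under sterol regulatory element binding proteins (SREBPs), which act with the CCAAT-binding factor NF-Y.

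Signals were the deposited intensities, which had been scaled to a common mean, and the median signal lay between 35.9 and 41.8 on the 7 arrays. For the tests, values below 5.8 were raised to 5.8, and log2 differences were fitted with limma. A probe set entered where the mean of either NmU group was over 20.2. A gene was called where its Benjamini-Hochberg adjusted p was below 0.05 with all arrays and again without NmU 6 h replicate 4. Its position was described over the 234 probe sets called without it. On a scale where 0 is the mean of the 3 h arrays and 1 that of the other 6 h arrays, it lay at 0.74. Those others lay at 0.94, 1.02 and 1.04, but they set the scale and helped to choose the probe sets. A lower position of the array left out was thus partly built in, and this tests nothing. Gata3, the defining factor of Th2 cells, had mean signals of 2566 at 3 h and 2310.2 at 6 h, and the T cell receptor chain Cd3d had 1456 and 1398. Other Th2 and T cell markers moved more, with 332.3 and 232.9 for Ccr8, 3482 and 2598 for Zap70 and 111.5 and 148.4 for Maf. The Th1 cytokine Ifng was below the floor on every array of both NmU groups, as were Cd8b1 of cytotoxic T cells and Lyz2 of macrophages. Other markers of other cell types were above it. The means at 3 h and 6 h were 15.8 and 16.7 for Cxcr3 of Th1 cells. They were 70.2 and 60.8 for Cd79a of B cells and 52.4 and 44.4 for Elane of neutrophils. Of the macrophage and dendritic markers, Itgax had 75.6 and 114.8, Cd14 69.7 and 76.4 and Cd68 35.6 and 50, while Adgre1 had 5.5 and 4.7. All 6 macrophage and dendritic markers were measured, and their summed signal ran from 194.8 to 254.0 at 3 h and from 252.5 to 301.2 at 6 h. None of the 4 macrophage and dendritic markers that were tested was called by limma. An unadjusted p under 0.05 was found for 2 of the 4, against 16.9% of all genes. The part of these markers in the results below was not tested. The collagen gene Col1a2 had mean signals of 389 at 3 h and 394 at 6 h.

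Between 3 h and 6 h the cells lost much of the signal of several chemokines and of interleukin 4, and gained signal of cholesterol synthesis enzymes and of other genes, most of which had been below PBS at 3 h. Of 5668 genes tested, 127 were higher at 6 h (2.24%) and 47 were lower (0.829%). Together these were 174 genes (3.07%). Of the higher genes 7, Lyst, Mef2c, Map3k4, Dab2ip, Pag1, Sass6 and Lppos, entered the test through their 6 h signal alone, and of the lower genes Ccl2 through its 3 h signal alone. By probe set, 148 of 7574 were higher (1.95%) and 59 lower (0.779%), which is 2.73% in either direction. Most changes were moderate, with a median size of 0.63 on the log2 scale among the higher genes and 0.65 among the lower ones. Only 13 of the higher and 10 of the lower genes reached 2-fold in the fit. In PBS cells no gene was called between the same times by limma, against 327 genes (5.77%) at an unadjusted p under 0.05, where the NmU cells had 956 (16.9%). The change under NmU differed from the change under PBS, in a test of that difference, for 24 genes above 0 (0.423%) and 12 below 0 (0.212%), together 0.635% of those tested. With all arrays alone 3.3% of genes were higher and 1.2% lower, and without replicate 4 alone 2.35% and 1.13%. The genes apart from PBS took in 23 of the 127 higher genes and 12 of the 47 lower ones.

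**Figure D1:**
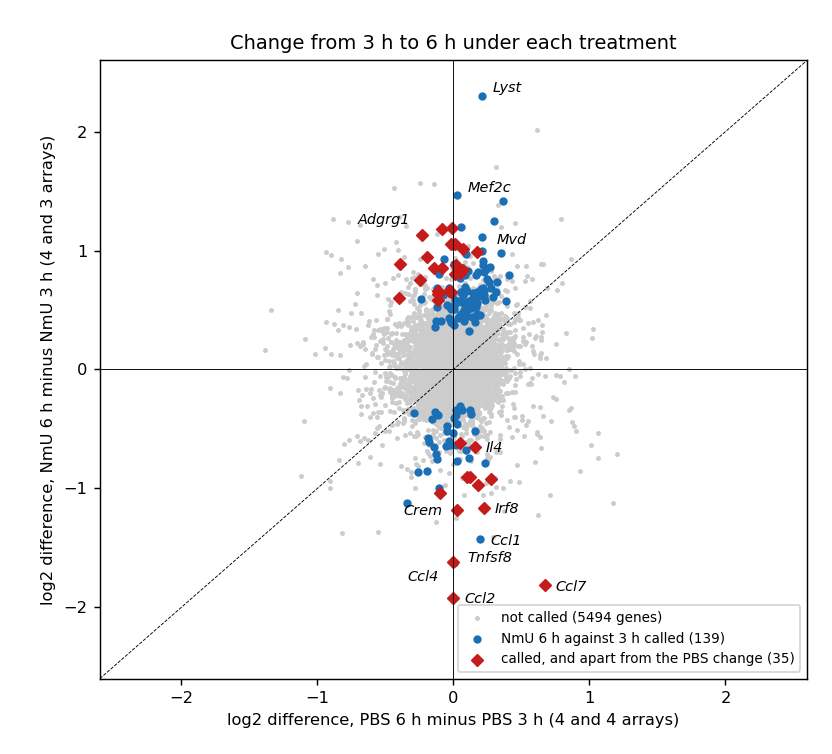
Each point is a gene, placed by its log2 difference between 6 h and 3 h in PBS cells on the x axis and in NmU cells on the y axis, with the diagonal marking equal change. The 174 called genes are blue circles, or red diamonds for the 35 whose NmU change also differed from the PBS change. Calls were made on the y value, so that their spread along the y axis was built in. On the x axis 71.7% of the higher genes and 55.3% of the lower genes were above 0, against 50.1% of the genes not called.

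The estimate of the spread came from all 31 arrays, and the count of calls rests on it. When the 7 arrays were fitted alone, 9 probe sets were higher and 6 lower, and of the genes named here only Gem, Aak1, Pitpnc1, Antxr2, Apaf1, Agfg1, Tec, Crem and Ccl7 kept their call. Scaling the arrays to a common median gave 54 probe sets higher and 39 lower, so that the share of higher calls was smaller than in the unscaled values, and moved the probe sets above and below 0 for the difference from PBS from 26 (0.343%) and 17 (0.224%) to 6 and 17. Quantile normalisation gave 103 and 58, and for that difference 13 and 17. Leaving out NmU 6 h replicate 1 left 64 higher and 29 lower probe sets, and leaving out NmU 3 h replicate 1 left 96 and 30. Without NmU 3 h replicate 2 the counts were 84 and 39, without NmU 3 h replicate 3 they were 87 and 30, and without NmU 6 h replicate 3 there were 87 higher. Of the 53 named genes that were called, 33 kept the call whichever of the 15 arrays at these times was left out. PBS 3 h replicate 4 was the lowest of its group for Nmur1, Scd2, Il4ra and Ccl7, and without it 185 probe sets were higher and 79 lower.

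The genes that rose had mostly been below PBS at 3 h, and those that fell had been above it. Of the 127 higher genes, 118 had a lower mean in NmU than in PBS at 3 h, with a median difference of -0.55 on the log2 scale. At 6 h the median was -0.04. Of the 47 lower genes, 42 were above PBS at 3 h, by a median of 0.90, and the median at 6 h was 0.15. The mean of 107 of the higher genes (84.3%) and 40 of the lower genes (85.1%) lay nearer to PBS at 6 h than at 3 h, against 57.5% of the genes not called. The same NmU arrays chose these genes, so that this describes them and tests nothing. At 12 h, on arrays that entered the estimate of the spread but not these differences, the medians were -0.04 for the higher genes and 0.09 for the lower ones. A smaller set rose away from PBS: 20 of the higher genes were further from PBS at 6 h, all of them above it, and Gem, Sqle and Hmgcs1 were among the 9 that were more than 0.5 above.

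**Figure D2:**
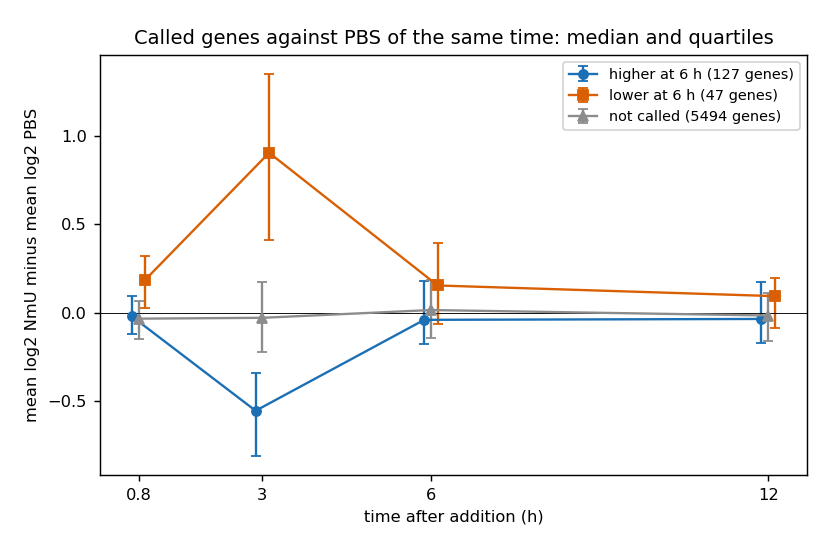
The mean log2 signal in NmU minus that in PBS of the same time is given on the y axis against hours on the x axis, as the median over genes with bars to the quartiles. The 47 genes lower at 6 h had a median of 0.90 at 3 h and the 127 higher genes -0.55, while at 0.8 h, 6 h and 12 h all medians lay between -0.04 and 0.19.

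Cholesterol synthesis was the metabolic path with the most calls. Of its 16 genes tested 7 rose and none fell, where 2.24% of all genes rose and 0.829% fell. The log2 differences of all 16 were above 0, as were 56.5% of those of all genes tested. Their median was 0.61, against 0.04 over all genes. The genes that rose were Hmgcs1, Mvk, Mvd, Fdps, Fdft1, Sqle and Nsdhl, spread over the path from mevalonate to the demethylation of lanosterol. In 9 of the 16 genes every 6 h array lay above every 3 h array, which was so for 10.7% of all genes tested. NmU 6 h replicate 4 was the lowest of its group for 9 of the 16 genes, against 23.8% of all genes tested. In PBS cells the median difference of the list was 0.19, and the difference between the NmU and the PBS change was called for Mvk alone.

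The first steps lead to mevalonate and its phosphates. Hmgcs1, which condenses acetoacetyl-CoA with acetyl-CoA, had signals of 219.4, 298 and 267.1 at 3 h and 422.3, 362.5, 468 and 390 at 6 h. The groups did not overlap, and the difference was 0.66 ± 0.17 (log2 ± SE; limma adjusted p = 0.0250 with all arrays and 0.0409 without replicate 4). PBS cells had a mean of 174 ± 38.8 at 3 h and 202 ± 34.1 at 6 h (SD, n = 4), so that NmU cells were above PBS at both times. Mvk, the mevalonate kinase, read 63.5, 84.1 and 68.8 at 3 h and 107.7, 114.4, 127.3 and 104 at 6 h, again with no overlap. It rose by 0.66 ± 0.12 (limma adjusted p = 0.00167), while PBS cells changed by -0.03, and the difference between these changes was 0.69 ± 0.17 (limma adjusted p = 0.0430). Mvd, which decarboxylates mevalonate diphosphate, went from 40.7, 42.2 and 30.6 to 91.6, 85.5, 55.3 and 72, a 2.01-fold ratio of means. That was the largest ratio among the called genes of the path.

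The middle steps make isoprenoids and join them into squalene. Fdps, the farnesyl diphosphate synthase, had signals of 896.6, 1180.4 and 1126.7 at 3 h and 1763.6, 2158.6, 1634.8 and 1343.7 at 6 h, and a further bright probe set of the gene was called as well. The last, near the filter in signal, read -0.19 ± 0.60 (limma adjusted p = 0.925), and with the mean over all probe sets Fdps was not called (0.445). Fdft1, the squalene synthase, had 142.8, 163.6 and 158.9 at 3 h and 250.8, 281.9, 262 and 235.9 at 6 h. Both sets of signals were apart between the times, with differences of 0.68 ± 0.15 and 0.73 ± 0.15 (limma adjusted p = 0.00843 and 0.00528). Sqle, the squalene epoxidase that commits squalene to sterols, read 417.5, 422.3 and 468.3 at 3 h and 898.1, 820.8, 801.9 and 610.5 at 6 h. Replicate 4 was the lowest 6 h array and still lay above all 3 at 3 h. Sqle rose by 0.83 ± 0.17 with all arrays and by 0.95 without replicate 4 (limma adjusted p = 0.00355 and 0.00145), and the PBS means were 323 ± 44.0 and 335 ± 22.9. At 12 h the mean under NmU was 432 ± 92.9, close to that at 3 h.

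The last steps turn lanosterol into cholesterol. Nsdhl, which removes carbon during demethylation, had signals of 146.6, 207.6 and 145.4 at 3 h and 280.4, 338.2, 303.7 and 260 at 6 h and rose by 0.84 ± 0.22 (limma adjusted p = 0.0252). A second probe set of Nsdhl was called too, and the last was not called in both runs. Msmo1, the methyl sterol oxidase of the same stage, was not called: its signals were 147.4, 188.1 and 141.5 at 3 h and 229.8, 190.3, 280.5 and 174 at 6 h. The lowest 6 h array, replicate 4, lay inside the 3 h range, and the difference was 0.45 ± 0.18 (limma adjusted p = 0.216, or 0.141 without replicate 4). Its signal was already 159 ± 25.4 at 3 h (SD, n = 3), against 81.5 ± 6.08 in PBS cells (n = 4).

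The other 8 genes tested, among them the isomerase Idi1, the cyclase Lss and the demethylase Cyp51, missed the rule. Idi1 passed only without replicate 4 (limma adjusted p = 0.0229, against 0.0795 with it), and Dhcr7, the last reductase, only with it (0.0399 against 0.0735). Ebp, Tm7sf2 and Ggps1 had the smallest differences of the path, 0.22 ± 0.14, 0.04 ± 0.15 and 0.10 ± 0.21. Acat2 and Pmvk were not analysed here, and Hsd17b7 was too dim. The count of 7 was 4 without NmU 3 h replicate 1, without NmU 3 h replicate 3 or without NmU 6 h replicate 1, and 3 once all arrays shared a median. Hmgcs1 lost its call without any of 4 arrays (adjusted p up to 0.209), Nsdhl without any of 5 (up to 0.135), Mvd without any of 3 (up to 0.0783) and Fdps without NmU 3 h replicate 1 (0.0853). Sqle, Fdft1 and Mvk kept theirs whichever array was left out.

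**Figure D3:**
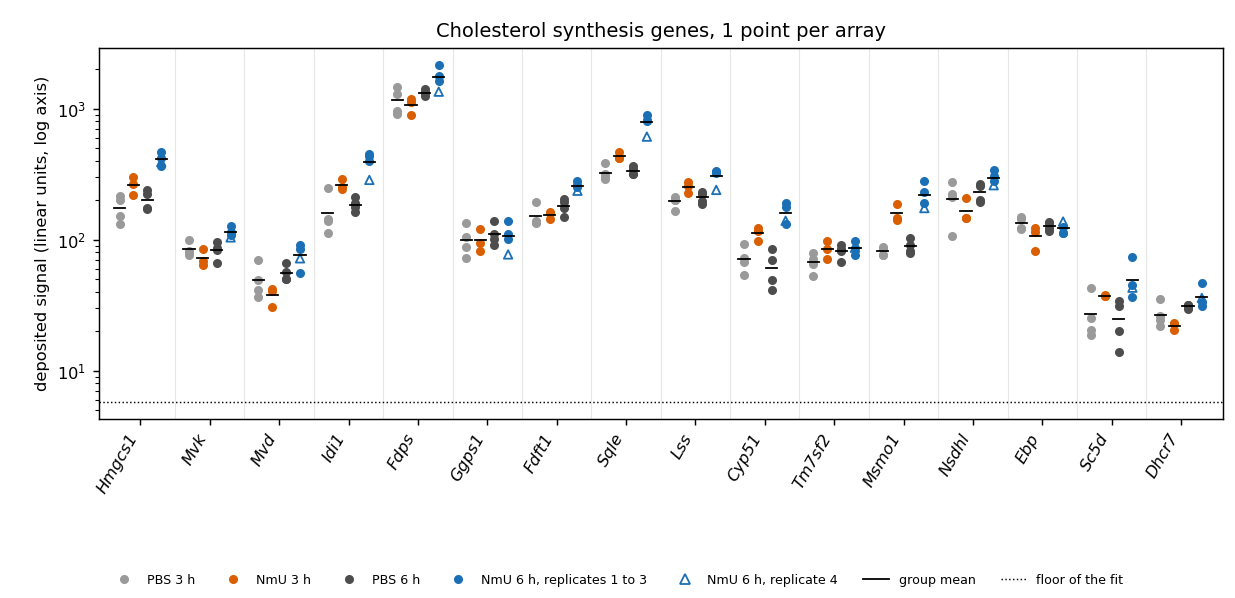
Each point is the deposited signal of 1 array on a log axis for the 16 cholesterol synthesis genes, ordered from Hmgcs1 to Dhcr7 along the x axis, with black bars for group means. The blue NmU 6 h points of Hmgcs1, Mvk, Mvd, Fdps, Fdft1, Sqle and Nsdhl all lie above the orange NmU 3 h points, and the open triangle of replicate 4 is often the lowest of them.

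These genes share a promoter feature that the comparison did not use. In the 250 bases upstream of the start site, taken from RefSeq (GRCm38.p6), the letters CCAAT on either strand, as read by NF-Y, occurred in all 13 of the 16 genes that had a window. The same letters were found for 37.5% of 27025 genes, or 40.9% of the tested genes with a window. The letters TCACNCCAC, a form of the sterol element read by SREBPs, were found in 1 of the 13 (Hmgcs1) and for 1.22% of all genes. Sqle, Fdps and Fdft1 had no window. The 150 bases before the start are shown for the 4 called genes with a window, since they carry the feature the path shares, with matches to either motif in capitals and the coding strand written 5′ to 3′. No match to CCAAT overlaps the match to TCACNCCAC.
Hmgcs1 (chr13:119690201-119690350, plus strand): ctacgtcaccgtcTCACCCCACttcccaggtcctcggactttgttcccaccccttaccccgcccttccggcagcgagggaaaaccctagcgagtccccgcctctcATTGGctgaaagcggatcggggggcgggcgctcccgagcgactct
Mvk (chr5:114444119-114444268, plus strand): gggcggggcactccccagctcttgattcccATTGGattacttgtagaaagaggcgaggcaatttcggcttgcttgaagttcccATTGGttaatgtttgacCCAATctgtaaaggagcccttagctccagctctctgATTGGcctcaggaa
Mvd (chr8:122443423-122443572, minus strand): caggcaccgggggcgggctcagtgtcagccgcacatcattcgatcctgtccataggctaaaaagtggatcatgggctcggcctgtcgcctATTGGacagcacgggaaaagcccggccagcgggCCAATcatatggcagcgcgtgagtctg
Nsdhl (chrX:72918371-72918520, plus strand): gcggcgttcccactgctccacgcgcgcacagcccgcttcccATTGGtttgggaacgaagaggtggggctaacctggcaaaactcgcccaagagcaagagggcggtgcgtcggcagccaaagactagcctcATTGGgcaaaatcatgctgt
Mvk held 4 matches to CCAAT in its stretch, Mvd and Nsdhl 2 each, and Hmgcs1 1 beside the sterol element. A match is a run of letters and no measured site. Among all genes called higher 43.8% held CCAAT, and among those called lower 31.6%.

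Outside cholesterol, lipid genes gave few calls. Of 16 genes of fatty acid and phospholipid synthesis 2 rose, where 2.24% of all genes did. Scd2, a stearoyl-CoA desaturase, read 475.8, 534 and 526.9 at 3 h and 971.1, 808.9, 1062.5 and 1027.2 at 6 h and rose by 0.91 ± 0.22 (limma adjusted p = 0.0150). The elongase Elovl5 rose by 0.43 ± 0.10 (0.00845 in the same fit). The means of both under NmU were below PBS at 3 h, where the PBS means were 868 ± 351 and 567 ± 24.3 (SD, n = 4). Scd2 lost its call without any of the 6 other NmU arrays (adjusted p up to 0.144) and Elovl5 without any of 3 arrays (up to 0.0868). None of the 7 tested SREBP regulators and sterol transport genes was called with limma, and 0 of the 7 had an unadjusted p under 0.05: Srebf1, which encodes an SREBP, differed by -0.03 and Npc1, a cholesterol transporter of lysosomes, by 0.14.

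The largest decreases were those of chemokines. Of 9 chemokine genes tested 4 fell and none rose, where 0.829% of all genes fell, with a median of -0.40 over the list. Ccl7, which attracts monocytes and eosinophils, had signals of 1396.5, 978.9 and 985.2 at 3 h and 257.2, 270.6, 316.1 and 440 at 6 h. Every 6 h array lay far below the 3 h arrays, by 3.49-fold in means and by 1.82 ± 0.38 on the log2 scale (limma adjusted p = 0.00515). PBS arrays had 58.8 ± 30.5 and 77.5 ± 7.74, so that the 6 h level was still above PBS. At 12 h the NmU mean was 129 ± 15.6 (SD, n = 4). Ccl2, the monocyte attractant, read 76.5, 36.9 and 35.5 at 3 h and 11.3, 2.8, 12.5 and 27.7 at 6 h. The groups were apart, and Ccl2 was called (0.000343 in the same fit). It was near the floor at 6 h, with 1 of the 4 arrays under it, so that the size of the fall is set in part by the floor. No PBS array of Ccl2 was above the floor at either time.

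Ccl4, an inflammatory chemokine, had signals of 180.2, 169.9 and 119.6 at 3 h and 60.9, 52.5, 33.8 and 56.8 at 6 h and fell by 1.63 ± 0.41 (limma adjusted p = 0.0210). Ccl1, the ligand of the Th2 receptor Ccr8, had 1569.4, 1032.5 and 1038.9 at 3 h and 469.9, 596.1, 440.1 and 310.3 at 6 h and fell by 1.43 ± 0.29 (0.00493). Both were apart between the times and remained above the PBS means at 6 h, which were 17.4 ± 8.90 and 104 ± 20.4. A dimmer second probe set of Ccl1 was not called. The difference from the PBS change was called for Ccl7 (-2.49 ± 0.51) and not for Ccl1 or Ccl4 (limma adjusted p = 0.0551 and 0.233). For Ccl2 that difference repeats the NmU change, since the floor sets its PBS change to 0. Ccl7 had 1 low array among the PBS controls, 13.8 on PBS 3 h replicate 4 against 69.7 to 81.3. Ccl4 lost its call without any of the 6 other NmU arrays (adjusted p up to 0.152) and Ccl1 without any of 3 (up to 0.128), so that 2 chemokines were lower without NmU 3 h replicate 1, NmU 6 h replicate 1 or NmU 6 h replicate 3. Ccl3, close kin of Ccl4 and chosen after its values were seen, read 160, 126.5 and 113.7 at 3 h and 128.2, 177, 141 and 92.7 at 6 h, with overlapping groups and a limma adjusted p of 0.994.

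Beside 2.24% of all genes higher and 0.829% lower, among 7 Th2 cytokines none rose and only Il4 fell. Its brightest probe set read 3987.1, 2895 and 2971 at 3 h and 1917.7, 2401.4, 2080.1 and 1906.4 at 6 h, a 1.58-fold decrease of means with no overlap (log2 0.65 ± 0.11 lower; limma adjusted p = 0.00105 and 0.00492 without replicate 4). PBS cells held 504 ± 76.5 and 560.0 ± 39.6, so that Il4 stayed above PBS at 6 h. The NmU change differed from the PBS change by -0.81 ± 0.16 (limma adjusted p = 0.00866). A second bright probe set moved in the same direction without passing (-0.65 ± 0.20; limma adjusted p = 0.0760), and both dim ones read -0.09 and 0.34. With the mean over all probe sets of the gene Il4 was not called.

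Il13, the other main effector of type 2 responses, had 5222.5, 4049.3 and 4712.7 at 3 h and 3511.8, 3882.2, 2884.4 and 3058.2 at 6 h, and its groups were apart, but the difference of -0.49 ± 0.15 missed the threshold (limma adjusted p = 0.0701). Il10 was also apart without passing, with 3543.2, 3245.7 and 3286.4 at 3 h and 2494.3, 2743.3, 2657.6 and 2919.1 at 6 h and an adjusted p of 0.220. Il5, the eosinophil growth factor, read 389.6, 153.6 and 135.7 at 3 h and 357.6, 293.1, 354.5 and 204.6 at 6 h. One array at 3 h was as high as the 6 h arrays, the groups overlapped, and the difference of 0.55 ± 0.26 was not called (limma adjusted p = 0.288). At 12 h the NmU mean of Il5 was 391 ± 58.0, the highest of its 4 times. Il6, Il9 and Il3 were not called either, and Csf2 was too dim.

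**Figure D4:**
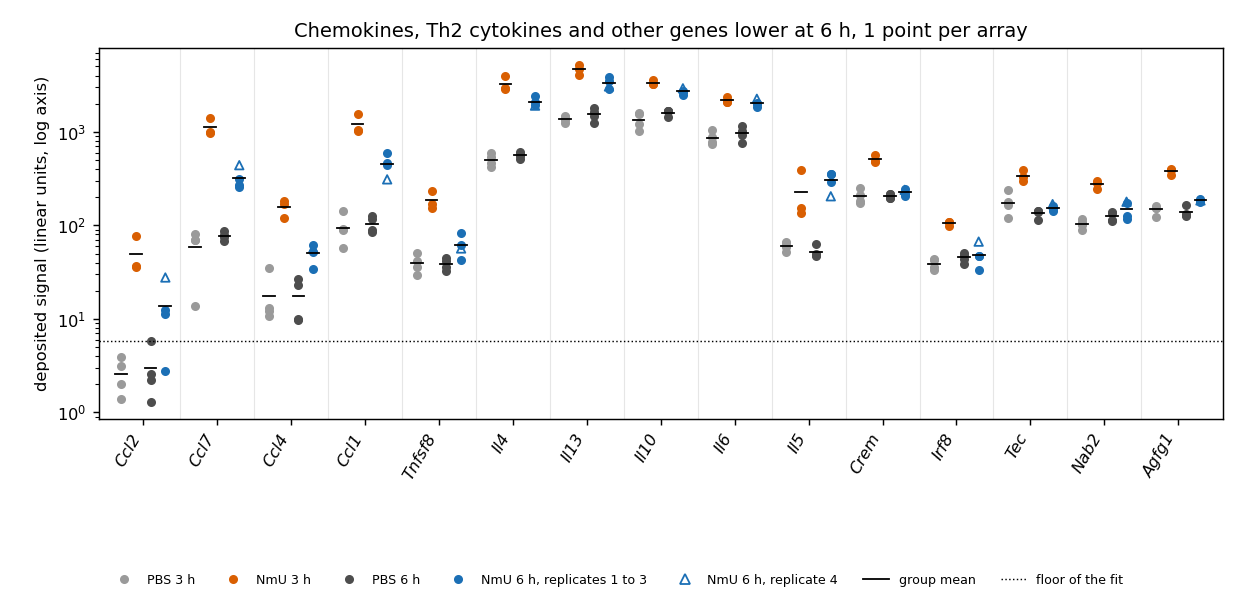
Each point is the deposited signal of 1 array on a log axis, for chemokines, Th2 cytokines and other genes along the x axis, with black bars for group means and a dotted line at the floor of the fit (5.8). NmU 6 h points lie below NmU 3 h points for Ccl2, Ccl7, Ccl4, Ccl1, Tnfsf8 and Il4, and overlap them for Il5 and Il6.

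Several genes of signalling and transcription fell together with the cytokines. Crem, a cAMP-responsive transcription regulator whose short form represses its own promoter, read 567.6, 480.6 and 490.7 at 3 h and 242.1, 215.5, 207.4 and 239.6 at 6 h. PBS cells at 6 h had 207 ± 12.1 (SD, n = 4), every array below replicates 1 and 4 of NmU, and the p-value of the fall of 1.18 ± 0.12 was among the smallest of the comparison (limma adjusted p = 1.08e-06). Both probe sets of Crem were called. Irf8, a lymphoid and myeloid transcription factor, read 109.4, 99.2 and 108.4 at 3 h and 46.9, 33.2, 47.4 and 67 at 6 h and fell by 1.16 ± 0.17 (0.000110 in the same fit), with replicate 4 as the highest 6 h array. Nab2, which binds Egr proteins and represses their targets, read 295.2, 247.5 and 286.6 at 3 h and 174.9, 124.6, 116.3 and 178.9 at 6 h and fell by 0.92 ± 0.17 (0.00170). For all of these the NmU change also differed from the PBS change. Gfi1, a repressor that supports Th2 growth, fell by 0.52 ± 0.12 (0.0122), a call that was lost without any of 5 arrays (up to 0.176).

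Tnfsf8, the CD30 ligand on activated T cells, had signals of 153.3, 232.6 and 167.4 at 3 h and 42.4, 83.7, 61.2 and 56.6 at 6 h. The lowest 3 h array was higher than the highest 6 h array, and the fall was 1.62 ± 0.21 (limma adjusted p = 4.14e-05). Of 12 genes of the TNF family Tnfsf8 was the only one called, where 3.07% of all genes were called. Tec, a kinase downstream of antigen receptors, read 389.6, 329.5 and 298.7 at 3 h and 141.6, 149.9, 160.4 and 168.6 at 6 h and fell by 1.12 ± 0.19 (0.000673). Its PBS means were 174 ± 48.7 and 134 ± 14.2, and the difference from the PBS change was not called (limma adjusted p = 0.202). Agfg1, a protein with an ArfGAP domain, read 387.1, 347.6 and 405.3 at 3 h and 182.3, 193.2, 177.9 and 184.9 at 6 h, with a fall of 1.04 ± 0.14 (4.55e-05). Rrad, a small GTPase that binds calcium channel subunits, had 210.5, 165.6 and 175 at 3 h and 90.6, 98.4, 103.3 and 98.3 at 6 h and fell by 0.91 ± 0.11 (9.30e-06). The 3 h arrays were above the 6 h arrays for each of these genes, which was so for 5.58% of all genes tested. The same arrays chose these and the other called genes, so that such a separation tests nothing.

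The remaining large decreases were those of Sema4b, a semaphorin, by 1.00 ± 0.17, of Srxn1, which restores oxidised peroxiredoxins, by 0.98 ± 0.17, of the magnesium transporter Slc41a1 by 0.90 ± 0.16 and of Fndc3a by 0.86 ± 0.16 (limma adjusted p from 0.000889 to 0.00170). Sema4b and Srxn1 were not called with the mean over all their probe sets. Smaller decreases were those of the glycolytic kinase Hk2, the lymph node homing receptor Ccr7 and the calcium binder S100a13, by 0.58 ± 0.16, 0.65 ± 0.18 and 0.34 ± 0.08. The Hk2 groups overlapped, Hk2 and S100a13 were not called with the mean over all their probe sets, and these calls were lost without any of 5, 6 and 3 single arrays (adjusted p up to 0.249, 0.20 and 0.102).

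Some of the genes that rose had been too dim at 3 h for the size of the change to be read. Lyst, a regulator of lysosome traffic, read 3.8, 12.4 and 6.3 at 3 h and 42.6, 31.2, 30.8 and 50 at 6 h and was called (limma adjusted p = 0.00330). In PBS cells it read 57.2, 53.6, 36.6 and 12.5 at 3 h, so that 1 PBS array was near the NmU arrays of that time. The transcription factor Mef2c had 3.9, 7.4 and 9.9 at 3 h and 13.2, 26.5, 23.7 and 22.3 at 6 h, and Map3k4, a stress kinase, had 25.1, 24 and 10.4 at 3 h and 42.7, 62.4, 42.6 and 52.1 at 6 h. Lyst and Mef2c each had 1 of 3 arrays at 3 h under the floor, raising the floor to the 40th percentile of signals ended both calls, and the calls were lost without any of 3 and 4 single arrays (adjusted p up to 0.0691 and 0.178). Map3k4, whose 3 h arrays were all above the floor, rose by 1.42 ± 0.22 (0.000233) and was called with every array left out in turn, though not with the mean over all its probe sets. The 6 h arrays of all 3 genes lay above their 3 h arrays. All 3 entered the test through their 6 h signal alone and were chosen on these arrays, so that this separation tests nothing.

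Pitpnc1, a phosphatidylinositol transfer protein, had signals of 53.3, 53.2 and 57.1 at 3 h and 109.8, 120.5, 108.3 and 115.9 at 6 h. The arrays of each time were close together, and the rise of 1.06 ± 0.11 had a limma adjusted p of 1.26e-06. PBS cells held 85.5 ± 14.2 and 83.9 ± 7.14, so that NmU cells went from below PBS to above it. Aak1, a kinase of clathrin adaptors, read 40.8, 32 and 30.1 at 3 h and 79.9, 71.8, 71 and 89.3 at 6 h and rose by 1.19 ± 0.16 (6.38e-05). The adhesion receptor Adgrg1 read 41, 25.3 and 31 at 3 h and 91.4, 67, 60.2 and 63.4 at 6 h and rose by 1.13 ± 0.18 (0.000367). The PBS means of these 2 genes at 3 h, 94.8 ± 27.7 and 100.4 ± 18.2, were above every NmU array at that time. The Aak1 values are those of its brightest probe set. Another probe set of Aak1, nearly as bright, did not show the rise (0.06 ± 0.26; limma adjusted p = 0.941). The dimmest one read 1.70 ± 0.56 and was not called. The rise of Aak1 thus rests on 1 called probe set. Antxr2, Fli1 and Stil rose by 0.99 ± 0.12, 1.01 ± 0.14 and 1.18 ± 0.20, and Arhgap45 by 1.11 ± 0.17. Antxr2 is a receptor for anthrax toxin, Fli1 an Ets factor of blood cells and Stil a centriole protein. For all of these but Arhgap45 the NmU change differed from the PBS change.

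Gem, a small GTPase, was the only called gene of 19 immediate early genes, where 3.07% of all genes were called. Of the 19, 15 had differences below 0, against 43.5% of all genes. Gem read 81.4, 82.6 and 82.2 at 3 h and 238.4, 225.1, 204.5 and 132.4 at 6 h and rose by 1.25 ± 0.35 (limma adjusted p = 0.0411). PBS cells at 3 h had a mean of 16.9 ± 9.89. The 3 NmU arrays at 3 h were close together, and replicate 4 was the lowest NmU array at 6 h. The call was lost without any of the 6 other NmU arrays (adjusted p up to 0.128). Nmur1, the NmU receptor itself, read 83.1, 153.6 and 144.2 at 3 h and 229.6, 261.6, 271.8 and 252.3 at 6 h, apart between the times, and rose by 1.05 ± 0.27 (0.0232). PBS cells held 214 ± 84.0 and 195 ± 25.1, with a single low array of 88.1 at 3 h, and the NmU mean at 12 h was 132 ± 24.1. The Nmur1 call was lost without any of 10 of the 15 arrays (adjusted p up to 0.276), and the difference from the PBS change was not called (0.233). Dab2ip, a Ras GTPase-activating protein, read 18.2, 22.5 and 6.6 at 3 h and 43.1, 25.1, 31.6 and 30.7 at 6 h and rose with a call that was lost without any of 6 arrays (up to 0.317).

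Among 17 Th2 transcription factors and partners 2 rose and 2 fell, beside 2.24% and 0.829% of all genes. Myb, a factor of immature and dividing lymphocytes, read 258.6, 229.7 and 232.4 at 3 h and 435.1, 351.1, 402.6 and 576.3 at 6 h. It rose by 0.85 ± 0.13 (limma adjusted p = 0.000276), with replicate 4 the highest array, and stayed below the PBS mean of 738 ± 25.9 at 6 h. Mef2c was the other that rose, and Crem and Gfi1 fell. Gata3, Maf and the others were not called. Among 10 interleukin receptors 2 rose, beside the same 2.24%. Il4ra, which carries the signal of interleukins 4 and 13, read 624.6, 652.2 and 738.5 at 3 h and 1218.6, 1024.4, 978.7 and 1359.7 at 6 h and rose by 0.76 ± 0.17 (0.0110), against 1547 ± 117 in PBS cells at 6 h. Il10rb rose by 0.32 ± 0.08 (0.0282). Il4ra was lost without any of 7 arrays (up to 0.207) and Il10rb without any of 12 (up to 0.229). A dim second probe set of Il4ra read 0.03 ± 0.30 (limma adjusted p = 0.979), and with the mean over both Il4ra was not called (0.560).

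Most of the listed cell cycle genes were not called. Of 11 D-type cyclins, CDK inhibitors and pocket proteins 3 rose, beside 2.24% of all genes. Rbl1, a pocket protein that holds back E2F factors, read 154, 146.7 and 137 at 3 h and 258.3, 227.2, 268.5 and 294.4 at 6 h, with tight groups and a rise of 0.84 ± 0.09 (limma adjusted p = 1.08e-06), and was below the PBS mean of 313 ± 23.2 at 3 h. The CDK4 and CDK6 inhibitors Cdkn2c and Cdkn2d rose by 0.68 ± 0.12 and 0.58 ± 0.12 (0.00131 and 0.00716). Of 23 genes of mitosis 3 rose, the kinases Aurka and Plk1 and the microtubule depolymerase Kif2c, by 0.63 ± 0.11, 0.53 ± 0.11 and 0.62 ± 0.11. Aurka read 163.3, 134.3 and 125.3 at 3 h and 223.7, 201.7, 219.3 and 223.9 at 6 h, and no 6 h array overlapped the 3 h arrays. Plk1 was lost without any of 4 arrays (up to 0.0974). None of 24 DNA replication genes was called in both runs, where 22 of the 24 differences were above 0, against 56.5% of all genes, with a median of 0.27, and 11 had an unadjusted limma p under 0.05, against 16.9% of all genes. Cdc6 and Mcm3 passed with all arrays only. Dtl, which marks the licensing factor Cdt1 for destruction, rose by 1.05 ± 0.18 (0.000836). Apaf1, the scaffold of the apoptosome, read 72.5, 64.8 and 69.7 at 3 h and 139.1, 122.5, 136.6 and 110.3 at 6 h and rose by 0.88 ± 0.11 (3.03e-05), as 1 of 16 apoptosis regulators.

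Other lists held no call. With limma in both runs, none of 20 ribosome biogenesis genes, 11 cytosolic ribosomal protein genes, 28 proteasome genes, 15 genes of the unfolded protein response, 16 cytosolic chaperones, 20 respiratory chain genes, 9 NFAT and calcineurin genes or 13 genes of the T cell receptor complex was called. At an unadjusted p under 0.05 the counts were 5, 2, 5, 3, 5, 2, 3 and 5 in the same order, beside 16.9% of all genes. Ribosome biogenesis had 18 of 20 differences below 0, against 43.5% of all genes, with a median of -0.19, and replicate 4 was below the other 6 h arrays for 15 of the 20. The NF-kB genes Gadd45b and Relb and the kinase Zap70 passed with all arrays only, as lower.

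Immediate early genes show what replicate 4 does to the comparison. Egr1, Egr2 and Fos, named after their values were seen, are transcription factors made within minutes of a stimulus. Egr1 read 281.9, 322.9 and 379 at 3 h and 170.2, 147.6 and 149.9 on the first 3 arrays at 6 h, but 1586.7 on replicate 4. Egr2 read 592.6, 408.5 and 526.6, then 251.9, 277 and 304.4, and 1705.4 on replicate 4. Fos read 59.5, 65.5 and 50.2, then 33.6, 28.5 and 31.1, and 336.7 on replicate 4. The means at 0.8 h of NmU were 3499.9 ± 164, 2954 ± 31.1 and 533 ± 46.6 (SD, n = 4), so that replicate 4 lay between the other 6 h arrays and the 0.8 h arrays for all 3 genes.

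Replicate 4 was above all other 6 h arrays for 15 of the 19 immediate early genes, against 32.7% of all genes tested. Its correlation over the tested probe sets was 0.983 with the mean of the 0.8 h NmU arrays and 0.979 with the mean of the other 6 h arrays. Without it 7 genes of the list were lower at 6 h, where 1.13% of all genes were, namely Atf3, Egr1, Egr2, Fos, Ier2, Ier3 and Nr4a1. With all arrays none was: for Egr2 the difference of -0.21 ± 0.37 had a limma adjusted p of 0.843, against -0.86 and 0.00336 without it. These genes are therefore not counted as lower. Its cytosolic ribosomal protein genes were below all other 6 h arrays in 9 of 11 cases and its proteasome genes in 18 of 28, against 23.8% of all genes. What set this array apart was not tested.

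**Figure D5:**
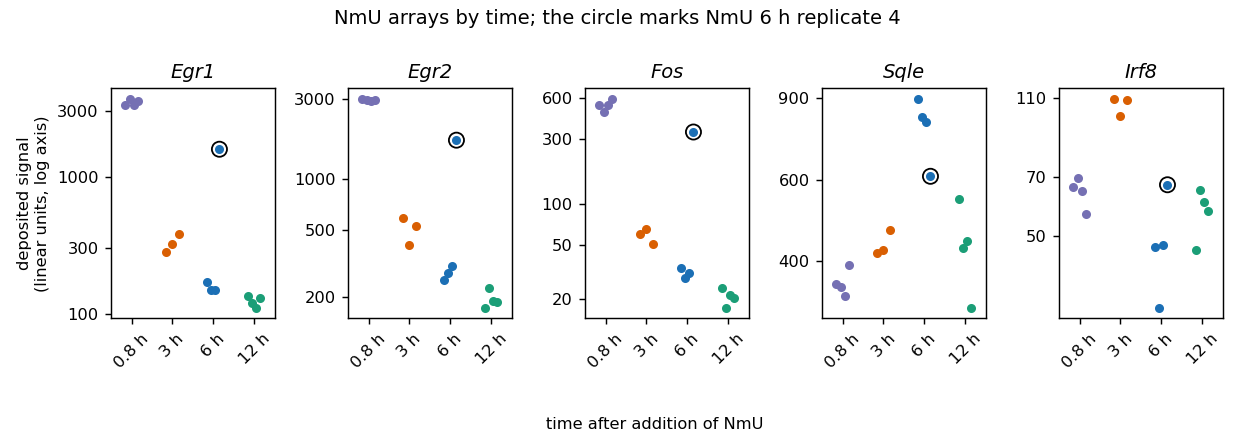
The deposited signal of every NmU array is given on a log axis for 5 genes, by time on the x axis, and a circle marks NmU 6 h replicate 4. The circled point lies between the 0.8 h arrays and the other 6 h arrays for Egr1, Egr2 and Fos, and nearest to the 3 h arrays among the 6 h points for Sqle and Irf8.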

How the data were processed

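Signals of 12488 probe sets on 31 arrays were 1-colour intensities deposited by the authors on a linear scale; 162 were 0. For the array type, scanner and probe summary, the sources used here give no statement. Per the values, the means of all arrays after trimming 2% at each end lay between 150.09 and 150.11, so the authors had scaled them, and no further normalisation was applied. The 66 control probe sets were left out, and groups came from sample titles. Values were floored at 5.8 (20th percentile), filtered at a group mean over 20.2 (40th percentile) and fitted as log2 with limma 3.58.1 in R 4.3.3, on a mean for each of 8 groups, with 23 residual degrees of freedom. Adjustment ran over 7574 probe sets. Each gene is represented by its brightest tested probe set over all arrays; of the 12422 others than controls, 10833 have 1 gene symbol, 396 several and 1193 none in the platform annotation, and the latter were not named. The members and gene lists were chosen with earlier results of these data known. Named genes are the 15 largest increases and 15 largest decreases among those called, all tested members of the cholesterol, SREBP and Th2 cytokine lists, and up to 4 of each other list with the lowest p. The fit was tested on simulated data. Alternatives changed the floor, filter, normalisation, arrays in the fit, weights, replicate block, fold minimum and probe set choice. No array was a copy of another.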

Additional observations from a re-analysis of the deposited data

Results flagged for a closer look

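For 22 of the 173 named genes the change under NmU differed from the change under PBS in the same fit (limma, adjusted p below 0.05 in both runs). Over all 5668 genes tested this held for 36 (0.635%). The named genes include the largest increases and decreases under NmU, which enter this difference. A higher share among them was therefore built into the choice and tests nothing. The NmU minus PBS difference of the log2 changes was 1.20 for Aak1, 1.27 for Stil, 1.36 for Adgrg1, 1.08 for Pitpnc1, 1.04 for Dtl, 0.95 for Fli1, 0.81 for Antxr2, 0.86 for Apaf1, 0.99 for Myb, 0.77 for Rbl1 and 0.69 for Mvk. It was -2.49 for Ccl7, -1.92 for Ccl2, -1.61 for Tnfsf8, -1.39 for Irf8, -1.21 for Crem, -1.20 for Nab2, -1.16 for Srxn1, -1.03 for Rrad, -1.001 for Slc41a1, -0.94 for Agfg1 and -0.81 for Il4. Ccl2 is counted among the 22, although the floor sets its PBS change to 0. The largest of the 2 runs' adjusted p-values ran from 0.000484 for Crem to 0.0486 for Stil.

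In 3 of the 173 named genes a single array at 6 h of NmU lay far from the others by Dixon's gap test: Lss at 239.4 on replicate 4, S100a10 at 1993.7 on replicate 2 and Nop58 at 322.9 on replicate 2. Chance alone gives about 1 such array in 20 groups.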

How the results depend on the processing

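No named gene reversed under any alternative: of 1421 values of the 53 called genes 1217 kept the call and 204 lost it, and 53 of 3212 values of the 120 others became called. The counts, given as probe sets higher and lower at 6 h and then above and below 0 for the difference from PBS, were 148, 59, 26 and 17. They moved most when only the groups compared were fitted (9, 6, 2 and 2; cholesterol genes 0, chemokines 1, Th2 cytokines 0), a fit with fewer arrays. A common median gave 54, 39 and 6 above 0, with 3 cholesterol genes, and quantile normalisation gave 13 above 0. Array quality weights gave 244, 115, 70 and 40. A minimum of 1.5-fold left 85 and 36, and all 4 arrays at 6 h alone gave 90 lower. With single arrays left out the ranges were 64 to 185, 29 to 79, 11 to 39 and 9 to 22, and 4 to 8 cholesterol genes, 2 to 4 chemokines and 1 Th2 cytokine. For the difference above 0 the counts were 17, 15 and 15 without PBS 6 h replicates 1, 2 and 4. Floors, dim filters and omission of PBS 3 h replicate 4 kept all counts within 1.5 times. Array number limits precision throughout.

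Replicate numbers did not pair the NmU samples: deviations of same-numbered arrays at 3 h and 6 h correlated at 0.07, -0.14 and -0.03. With the replicate number as a block within treatment the counts were 117, 46, 15 and 13.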
